A study of Mus musculus with 13 samples.

Results

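The fatty acid elongase family was followed in P4 skin of mice lacking KCTD1 and KCTD15 in keratinocytes. Its members, *Elovl1* to *Elovl7*, were chosen by gene symbol and are 7 of the 49315 genes in the count tables. RNA-Seq of full-thickness back skin was compared between 3 WT controls and 3 mice labelled K14KCTD1KCTD15DKO, here DKO, all aged 4 days (P4). DKO mice are *K14Cre+Kctd1fl/flKctd15fl/fl*: Cre recombinase under the keratin 14 promoter deletes floxed exons of both genes in keratinocytes, including those of hair follicles and sebaceous glands, whereas dermis, fat and muscle in the same sample are not targeted. The WT group carries no other allele or agent in its labels. The samples were libraries of rRNA-depleted total RNA, and the question put to the family was which of its members, and thus which step of chain lengthening, differed between DKO and WT skin.

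Elongases sit in the endoplasmic reticulum and condense an activated fatty acid with malonyl-CoA, the slow step of a cycle in which a reductase, a dehydratase and a further reductase then complete each extension. Members differ in the chains they accept. ELOVL6 takes palmitate to stearate, at the exit of de novo synthesis. ELOVL1, ELOVL3 and ELOVL7 extend saturated and monounsaturated chains to very long ones, and ELOVL4 makes the ultra-long chains of the epidermal barrier ceramides. ELOVL5 and ELOVL2 act on polyunsaturated chains. In skin the products go to barrier ceramides and to the wax and sterol esters of sebum.

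RefSeq promoter windows (GRCm38.p6, 250 bases before to 50 bases after a start) were found for 6 of the 7 genes, *Elovl3* being the gene without an entry. The 200 bases before the start of the gene, taken as the more upstream of its RefSeq start and the start in the count tables, are shown for *Elovl6*, *Elovl4* and *Elovl5*, which were lower in every DKO library, and for *Elovl1* and *Elovl7*, whose groups overlapped, so that the upstream sequence can be read beside the response. Capitals mark matches on either strand to TCACNCCAC (part of a sterol response element), CACGTG (E-box), CCAAT (NF-Y box), GGGCGG (Sp1 box) or GCCNNNGGC (AP-2 palindrome). The AP-2 palindrome was included because KCTD1 and KCTD15 are inhibitors of AP-2 transcription factors. The stretches lie at chr3:129532155-129532354 on the plus strand for *Elovl6*, chr9:83806306-83806505 on the minus strand for *Elovl4*, chr9:77917164-77917363 on the plus strand for *Elovl5*, chr4:118427893-118428092 on the plus strand for *Elovl1* and chr13:108214204-108214403 on the plus strand for *Elovl7*.
Elovl6: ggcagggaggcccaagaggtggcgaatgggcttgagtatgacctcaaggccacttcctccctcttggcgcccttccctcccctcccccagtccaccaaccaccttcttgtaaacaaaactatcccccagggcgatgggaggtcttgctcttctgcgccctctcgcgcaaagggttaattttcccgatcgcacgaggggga
Elovl4: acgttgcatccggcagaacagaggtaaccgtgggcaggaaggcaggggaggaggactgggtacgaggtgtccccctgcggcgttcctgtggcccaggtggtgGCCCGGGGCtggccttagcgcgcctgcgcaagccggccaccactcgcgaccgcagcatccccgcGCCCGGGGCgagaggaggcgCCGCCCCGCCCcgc
Elovl5: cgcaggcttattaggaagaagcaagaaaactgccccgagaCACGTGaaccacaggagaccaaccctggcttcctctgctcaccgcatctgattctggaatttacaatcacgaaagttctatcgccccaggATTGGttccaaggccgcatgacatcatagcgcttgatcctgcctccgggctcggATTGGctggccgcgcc
Elovl1: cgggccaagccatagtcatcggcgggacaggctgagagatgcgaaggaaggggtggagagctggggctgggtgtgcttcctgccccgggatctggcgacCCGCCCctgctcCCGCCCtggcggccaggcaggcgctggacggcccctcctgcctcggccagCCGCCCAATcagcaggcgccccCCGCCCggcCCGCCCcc
Elovl7: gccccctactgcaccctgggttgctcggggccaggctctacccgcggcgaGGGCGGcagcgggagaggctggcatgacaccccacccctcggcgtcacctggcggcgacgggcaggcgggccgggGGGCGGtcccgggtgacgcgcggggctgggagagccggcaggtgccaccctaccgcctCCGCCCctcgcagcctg

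The *Elovl6* stretch held 0 matches to the 5 motifs and was 60.0% G or C. The *Elovl4* stretch held 2 AP-2 palindromes and 2 overlapping Sp1 boxes, and *Elovl5* held 1 E-box and 2 NF-Y boxes. The *Elovl1* stretch held 5 Sp1 boxes, of which 1 overlaps the NF-Y box, and *Elovl7* held 3 Sp1 boxes. Of 32851 promoter windows of all genes, 1.24% held TCACNCCAC, 7.15% CACGTG, 37.4% CCAAT, 35.7% GGGCGG and 16.6% GCCNNNGGC. No window of the 6 members held TCACNCCAC, which says only that these letters are not in these windows. Over the whole windows *Elovl4* and *Elovl5* each held an E-box and an NF-Y box, those of *Elovl4* lying after its start and so outside the printed stretch.

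The 6 libraries held between 11263863 and 17643043 counts on genes, and a count of 3, taken as the floor, corresponded to 0.170 to 0.266 CPM. Counts of *Kctd1* and *Kctd15* per gene do not resolve the floxed exons and were higher in DKO, with log2 fold changes of 0.78 and 0.83 that were not called (edgeR adjusted p = 0.342 and 0.107), so the direction of every comparison rests on the labels. DKO replicate 1 stood apart: it had the lowest depth, the highest sum of the 20 skeletal muscle markers (341607 normalized counts, against 161411 to 161836 in the other DKO and 99261 to 113758 in WT libraries) and the lowest sum of the 10 hair follicle markers measured (71566, against 136538 to 184611 and 183602 to 209554). Markers of full-thickness skin were present in all libraries, among them *Krt5*, *Krt1*, *Krt71*, *Col1a1* and *Plin1*. Each group held 1 library with high *Xist* and low Y-linked genes and 2 of the opposite kind.

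*Elovl6* fell in DKO skin to 31.7% of its WT mean, and it was the only called member among the 6 with enough counts for a test. *Elovl3*, *Elovl4* and *Elovl5* were lower in all 3 DKO than in all 3 WT libraries, at 47.8%, 57.4% and 65.5% of the WT mean, without passing the test. *Elovl1* and *Elovl7* overlapped between the groups, and *Elovl2* was at or under the floor. Calls required an absolute log2 fold change over 1 together with an adjusted p under 0.05 by edgeR's quasi-likelihood F test (Benjamini-Hochberg, 20168 genes tested). Under this rule 0.0694% of all genes tested were called, and 0.0298% were called lower, against 1 of 6 members. The 4 members whose groups did not overlap were all lower in DKO, against 13.2% of all genes tested without overlap in either direction. The median log2 fold change was −0.71 over the 6 members and 0.02 over all genes tested. With DESeq2, which called 0.827% of the genes it tested, *Elovl6* (adjusted p = 2.09e-13) and *Elovl3* (adjusted p = 0.00406) were called.

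**Figure D1:**
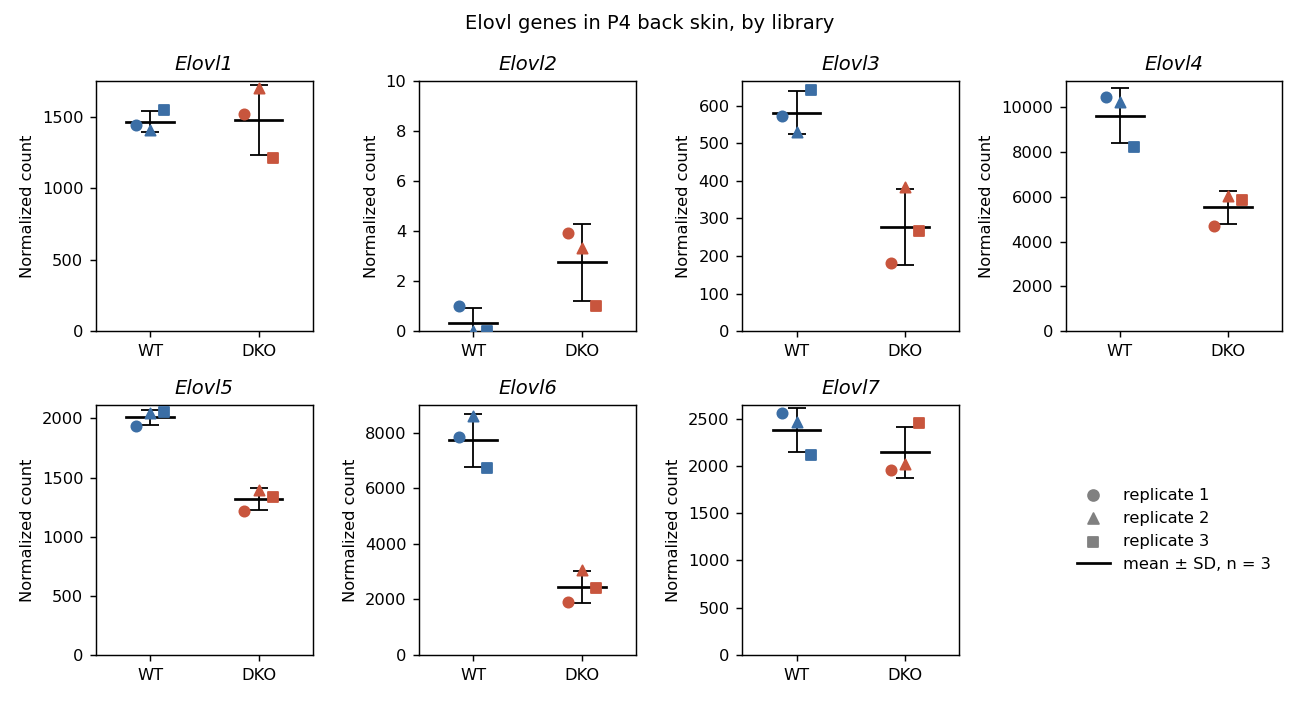
Normalized counts (y axis, linear from 0) of the 7 *Elovl* genes in each P4 skin library, WT in blue and DKO in red, with the mean ± SD of 3 mice in black. The groups are separate for *Elovl3*, *Elovl4*, *Elovl5* and *Elovl6* and overlap for *Elovl1* and *Elovl7*, and *Elovl2* has at most 3 reads in any library.

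*Elovl6* (ENSMUSG00000041220, GRCm38 chr3:129532355-129638495, plus strand) encodes the elongase of palmitate. Normalized counts, scaled to a common library size, of the WT mice, in replicate order, were 7853, 8602 and 6723, and those of the DKO mice were 1901, 3041 and 2401. All DKO libraries thus lay well below the lowest WT library, and DKO replicate 1 was lowest. Means were 7726 ± 946 in WT and 2448 ± 572 in DKO (SD, n = 3 each), a log2 fold change of −1.66 (SE 0.18, 95% interval −2.07 to −1.24, edgeR adjusted p = 0.0155). This was the 4th smallest p and the 36th lowest fold change of 20168 genes. Mice sharing the number 40972 in their labels differed by −1.82 (log2, 1 mouse per genotype), and those sharing 47347 by −1.60 (2 mice per genotype). The call was lost when WT replicate 1, 2 or 3 or DKO replicate 3 was left out (edgeR adjusted p = 0.173, 0.125, 0.0642 and 0.107), while the fold change stayed between −1.84 and −1.52. Without DKO replicate 1 the fold change was −1.52 (edgeR adjusted p = 0.0027). In bulk skin, fewer cells that make *Elovl6* and less *Elovl6* mRNA per cell cannot be told apart.

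*Elovl3* (ENSMUSG00000038754, chr19:46131897-46135307, plus strand) makes saturated and monounsaturated very long chains, and is known in skin from sebaceous glands and hair follicles. Normalized counts were 573, 529 and 642 in WT and 183, 384 and 268 in DKO. The DKO libraries differed more among themselves than the WT libraries did, with replicate 1 at 31.4% of the WT mean, replicate 3 at 46.1% and replicate 2 above both. Means of 581 ± 57.3 and 278 ± 101 (SD, n = 3 each) gave a log2 fold change of −1.06 (SE 0.24, 95% interval −1.60 to −0.52, edgeR adjusted p = 0.235). Without DKO replicate 1 it was −0.85 (edgeR adjusted p = 0.132), and without DKO replicate 2 it was −1.36 and called (edgeR adjusted p = 0.0354). Within label number 40972 the difference was −1.81, and within 47347 it was −0.76, the widest gap between the label numbers in the family. The value for 40972 rests on WT replicate 3 and DKO replicate 1 alone, and DKO replicate 1 is the library that stood apart.

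*Elovl4* (ENSMUSG00000032262, chr9:83778692-83806277, minus strand), needed for the skin's water barrier, had 10449, 10221 and 8209 normalized counts in WT and 4677, 6036 and 5860.3 in DKO. Every DKO library lay below every WT library, with DKO replicate 1 lowest. The log2 fold change was −0.80 (SE 0.15, 95% interval −1.15 to −0.45, edgeR adjusted p = 0.168), and the values within the label numbers were −0.81 and −0.80. *Elovl5* (ENSMUSG00000032349, chr9:77917364-77984519, plus strand), which extends polyunsaturated chains, had 1939, 2041 and 2051 normalized counts in WT and 1216, 1398 and 1334 in DKO. Relative to the mean, its libraries were the most alike within each group, with SDs of 62.2 in WT and 92.2 in DKO around means of 2010.2 and 1316. The log2 fold change was −0.61 (SE 0.12, 95% interval −0.87 to −0.35, edgeR adjusted p = 0.168), with −0.75 and −0.54 within the label numbers. With DESeq2 both genes passed the p threshold (adjusted p = 0.00113 and 0.00502) but not the threshold on the fold change. Without DKO replicate 1 the fold changes were −0.71 and −0.57 (edgeR adjusted p = 0.126 and 0.14).

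*Elovl1* (ENSMUSG00000006390, chr4:118428093-118432953, plus strand), the broadly used elongase for very long saturated chains, had 1446, 1408 and 1549 normalized counts in WT and 1519.6, 1703 and 1213 in DKO. DKO held both the highest and the lowest library of the 6. The log2 fold change was 0.01 with a 95% interval of −0.32 to 0.34 (edgeR adjusted p = 0.995), and its sign turned under 6 of the 7 other settings without a library left out. *Elovl7* (ENSMUSG00000021696, chr13:108214404-108287105, plus strand), also an elongase of saturated chains, had 2555, 2464 and 2114 in WT and 1960.0, 2019 and 2453 in DKO. DKO replicate 3 reached the WT range, and the other DKO libraries lay below it. The log2 fold change was −0.15 (95% interval −0.46 to 0.16, edgeR adjusted p = 0.921). Both intervals leave out a fall of the size of *Elovl6*. *Elovl2* (ENSMUSG00000021364, chr13:41182495-41220405, minus strand), an elongase of long polyunsaturated chains, had 1, 0 and 0 raw counts in WT and 3, 3 and 1 in DKO, all at or under the floor, so no fold change is given.

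**Figure D2:**
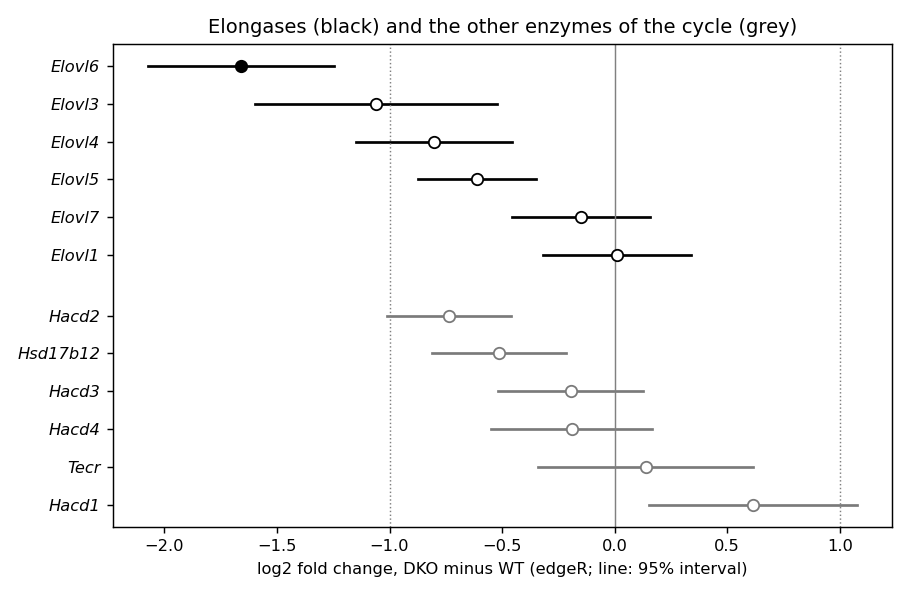
Log2 fold changes (x axis, DKO minus WT) of the 6 tested elongases in black and of the other enzymes of the elongation cycle in grey, with 95% intervals from edgeR. The filled point is the called gene, *Elovl6* at −1.66, and dotted lines mark the threshold of 1 in either direction; *Elovl1* and *Elovl7* span 0.

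Levels can be compared between genes per length, as RPKM (reads scaled to annotated exon length and to library size). In WT skin *Elovl4* was highest at 210 ± 26.8 RPKM, followed by *Elovl6* at 79.1 ± 9.69 (SD, n = 3 each). *Elovl5* at 37.6 ± 1.16 and *Elovl1* at 35.5 ± 1.76 came next and their libraries overlapped, as did those of *Elovl7* at 28.8 ± 2.82 and *Elovl3* at 25.6 ± 2.53. The elongases of barrier ceramides and of palmitate thus led in neonatal WT skin. In DKO skin *Elovl4* stayed first at 120 ± 16.1 RPKM, and *Elovl1* had the next mean at 35.7 ± 5.98, though its libraries overlapped those of *Elovl7* and *Elovl6*. *Elovl7* at 26.0 ± 3.26, *Elovl6* at 25.1 ± 5.86 and *Elovl5* at 24.6 ± 1.72 could not be ordered beyond their spread, and *Elovl3* was lowest of the 6 at 12.3 ± 4.45. *Elovl6* was therefore above *Elovl5*, *Elovl1* and *Elovl7* in each WT library, and below *Elovl1* in each DKO library.

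The 7 genes summed to 435, 436 and 377 RPKM in WT and to 213, 271 and 248 RPKM in DKO. The groups did not overlap (exact two-sided permutation test, p = 0.1, the smallest that 3 against 3 allow). Of this sum *Elovl6* made up 18.5, 20.2 and 18.3% in WT and 9.16, 11.5 and 9.92% in DKO. *Elovl1* took 8.58 ± 1.16% in WT and 14.8 ± 2.75% in DKO, and *Elovl7* 6.92 ± 0.17% and 10.7 ± 1.53%. For these 3 genes the shares did not overlap between the groups (exact two-sided permutation test, p = 0.1 each). *Elovl4* made up about as much in both, with 50.2 ± 2.54% and 49.3 ± 1.92% (SD, n = 3 each; exact two-sided permutation test, p = 0.8). *Elovl3* went from 6.22 ± 1.14% to 4.93 ± 1.23% and *Elovl5* from 9.08 ± 0.96% to 10.1 ± 0.53%, and both overlapped (exact two-sided permutation test, p = 0.3 each). Shares add to 100%, so a lower share of *Elovl6* raises the others.

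**Figure D3:**
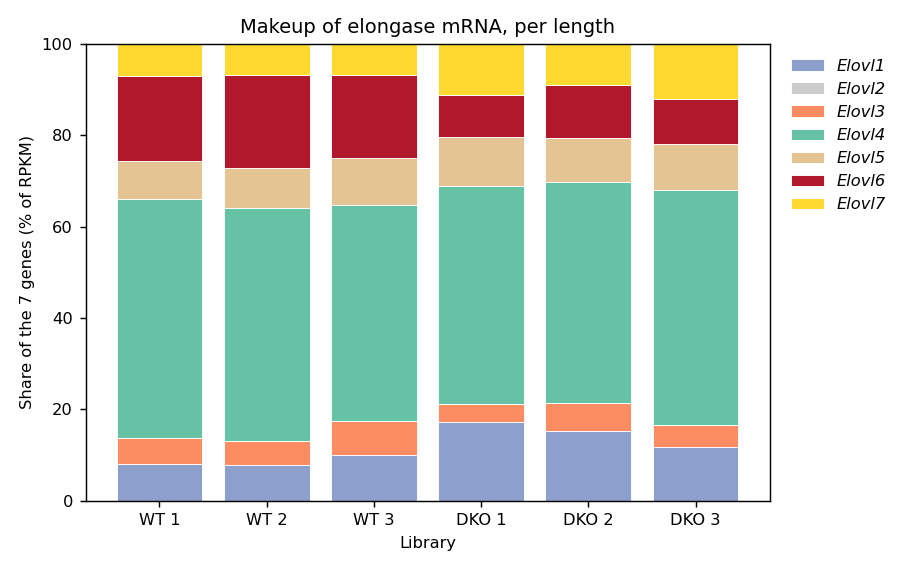
Share of each *Elovl* gene in the summed RPKM of the 7 genes (y axis, percent), 1 bar per P4 skin library. *Elovl6*, in dark red, takes 18.3 to 20.2% in WT and 9.16 to 11.5% in DKO libraries, while *Elovl4*, in green, takes 47.4 to 52.2% and 47.9 to 51.4%.

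Ratios within a library do not depend on how libraries are scaled to each other, and they show whether *Elovl6* changed more than other members. The RPKM of *Elovl6* was 2.30, 2.59 and 1.84 times that of *Elovl1* in WT and 0.53, 0.757 and 0.839 times in DKO. The order of the 2 genes was thus opposite in the groups, and the log2 ratio was lower in DKO by a difference of −1.68. Against *Elovl7* the ratio was 2.60, 2.95 and 2.69 in WT and 0.82, 1.27 and 0.827 in DKO, a log2 difference of −1.53. Against *Elovl5* it was 2.22, 2.31 and 1.80 in WT and 0.856, 1.19 and 0.986 in DKO, a log2 difference of −1.06. In DKO skin, then, the palmitate elongase was near parity with both. Against *Elovl4* the log2 difference was −0.88, and against *Elovl3* it was −0.55, where the lowest WT ratio of 2.43 and the highest DKO ratio of 2.42 nearly met. All 5 ratios were lower in all 3 DKO libraries than in all 3 WT libraries (exact two-sided permutation test, p = 0.1 each, the smallest possible, and 0.1 after Benjamini-Hochberg adjustment over the 5). The ratios share *Elovl6*, the member with the lowest fold change in these same libraries, so they are independent neither of each other nor of that fold change. Without DKO replicate 1 they lay between −1.48 and −0.65.

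**Figure D4:**
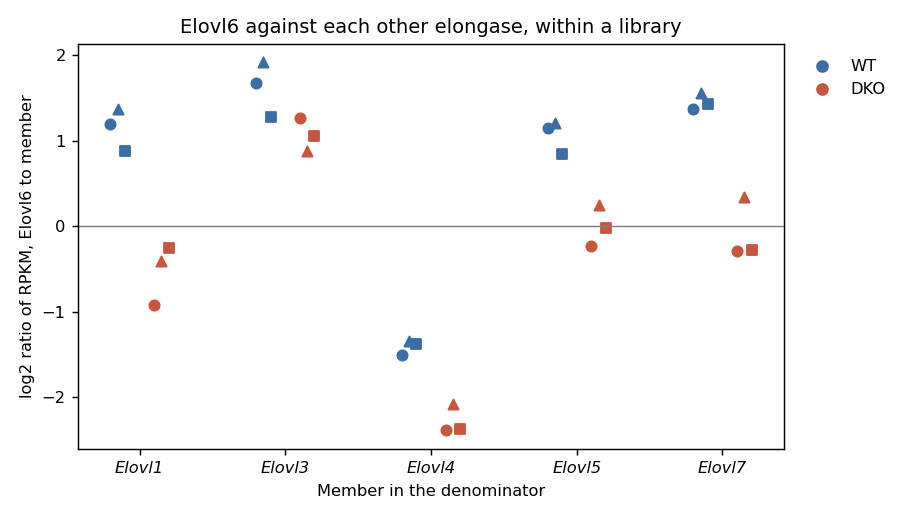
Log2 ratio of the RPKM of *Elovl6* to that of each other tested member (y axis), 1 point per library, WT in blue and DKO in red. DKO points lie below WT points for every member, by −1.68 on average for *Elovl1* and −0.55 for *Elovl3*.

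Reads of neighbouring genes could enter some of these counts, since the strand setting of the counting is not given in the sources used here. The exons of *Elovl6* share 34 of their 6431 bases with the antisense gene *Gm35986*, which had 0 to 6 raw counts per library. *Elovl1* shares 53 of 2726 exon bases with the antisense gene *Cdc20*, at 450.0 to 486 normalized counts in WT and 368 to 564 in DKO, and the other 5 members share none. *Gm43072* (chr3:129538141-129539811) lies on the strand of *Elovl6* inside its intron 1, with no exon base in common. It had 273, 289 and 314 normalized counts in WT and 177, 157 and 192 in DKO, a log2 fold change of −0.73 (95% interval −1.09 to −0.38, edgeR adjusted p = 0.208). *Elovl6* had 28.7, 29.8 and 21.4 counts per count of *Gm43072* in WT and 10.7, 19.4 and 12.5 in DKO. The log2 ratio was lower in DKO by a difference of −0.94, without overlap (exact two-sided permutation test, p = 0.1, the smallest possible).

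The 5 genes whose profile over the 6 libraries was nearest to *Elovl6*, by root mean square difference in log2 counts from the WT mean among 20168 genes, were *Aadacl4* (0.118), *Far2* (0.219), *Scd1* (0.250), *Cyp2g1* (0.262) and *Gm9353* (0.271). *Far2* makes fatty alcohols for wax esters, and *Scd1* desaturates stearate. *Scd1* had 21992, 24603 and 21261 normalized counts in WT and 6916, 11432 and 9105 in DKO, with DKO replicate 1 lowest and replicate 2 highest among DKO as for *Elovl6*. The nearest to *Elovl3* were *Calml3* (0.110), *Gm37194* (0.115), *Dapl1* (0.121), *Tmem56* (0.149) and *Dgat2l6* (0.156). Log2 fold changes of these 10 genes lay between −1.72 and −0.99. This range follows from the choice, since they were picked for values near those of *Elovl6* or *Elovl3* in these same libraries. EdgeR called 0 of them and DESeq2 8, all but *Gm9353* and *Gm37194*, and edgeR with total counts called 4, among them *Scd1* and *Far2*. Over all genes tested edgeR called 0.0694% and DESeq2 0.827%. The calls among the 10 depend on the same choice. With so few libraries the likeness only describes values relative to the WT mean in these 6 libraries.

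The other enzymes of the elongation cycle were not called by edgeR or DESeq2, 3 of the 6 tested had an unadjusted p under 0.05 in edgeR, and their median log2 fold change of −0.19 over 6 tested genes was nearer to that of all genes than the elongases were. *Hacd2*, a dehydratase of the cycle, had 1408, 1446 and 1424 normalized counts in WT and 858, 928 and 783 in DKO, a log2 fold change of −0.74 (edgeR adjusted p = 0.103). *Hsd17b12*, which reduces the ketoacyl product of the elongases, had 1808, 1659 and 1628 in WT and 1324, 1040.2 and 1206 in DKO (−0.51, edgeR adjusted p = 0.298). Both were lower in every DKO library. *Hacd1*, a dehydratase known from muscle, was higher in every DKO library (0.61, edgeR adjusted p = 0.464), and *Tecr*, the last reductase, overlapped (0.14). In all, 2 of the 6 were lower without overlap, 1 was higher without overlap, and *Tecrl* was not tested. Among all genes tested 13.2% were without overlap in either direction, and 1512 of 20168 had an unadjusted p under 0.05 in edgeR.

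Upstream of *Elovl6*, edgeR and DESeq2 called 0 of 8 genes of fatty acid synthesis. In edgeR 4 had an unadjusted p under 0.05, 5 were lower without overlap, and the median was −0.31. Of all 20168 genes tested, 1512 had an unadjusted p under 0.05 (512 of them lower), and 13.2% were without overlap in either direction. *Acss2*, which activates acetate, differed by −0.51 and *Acacb*, an acetyl-CoA carboxylase, by −0.61 (edgeR adjusted p = 0.423 and 0.458), while *Fasn*, the maker of palmitate, overlapped at −0.33. Of the 8 desaturases edgeR called 0, with 3 at an unadjusted p under 0.05 and a median of −0.29, while DESeq2 called *Scd1* (adjusted p = 2.48e-08) and *Scd3* (adjusted p = 0.0475). *Scd1*, which acts on the product of ELOVL6, differed by −1.31 (edgeR adjusted p = 0.0617) and *Scd3*, a related sebaceous desaturase, by −2.37 (edgeR adjusted p = 0.199), both without overlap. *Scd1* was also called by edgeR with RLE size factors (adjusted p = 0.0478), with total counts (adjusted p = 0.0258) and with the label number as a block (adjusted p = 0.0137). Of 11 tested genes that take up, activate or bind fatty acids, 2 were lower and 2 higher without overlap, all 4 at an unadjusted p under 0.05 in edgeR, which called 0, and the median was −0.07. Among them were the acyl-CoA synthetase *Acsl5* (−0.55, edgeR adjusted p = 0.251) and the transport protein *Slc27a3* (1.08, edgeR adjusted p = 0.253), which DESeq2 called (adjusted p = 0.0135).

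Downstream, edgeR called 0 of 13 genes that use or process very long chains in ceramides, with 4 at an unadjusted p under 0.05 and a median of −0.09, and DESeq2 called *Fa2h* (adjusted p = 0.00197). Over all genes tested, 1512 of 20168 had an unadjusted p under 0.05 in edgeR, and 13.2% were without overlap in either direction. The hydroxylase *Fa2h* had a log2 fold change of −1.42 (edgeR adjusted p = 0.281) and the desaturase *Degs2* of 0.83 (edgeR adjusted p = 0.274), in opposite directions and both without overlap. *Cers3*, the ceramide synthase that takes up ELOVL4 products, overlapped at −0.13. Of 14 regulators of lipid synthesis 0 were called by edgeR or DESeq2, 1 had an unadjusted p under 0.05 in edgeR, 11 had values above 0, and the median was 0.12. *Srebf1*, the sterol-regulated factor known to drive *Elovl6*, differed by 0.01 with a 95% interval of −0.40 to 0.41. *Insig1* and *Insig2*, which retain that factor's precursor, were lower without overlap at −0.56 and −0.31 (edgeR adjusted p = 0.422 and 0.673). For *Insig2* the groups nearly met, at 947.7 normalized counts in DKO replicate 3 and 947.9 in WT replicate 3.

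**Figure D5:**
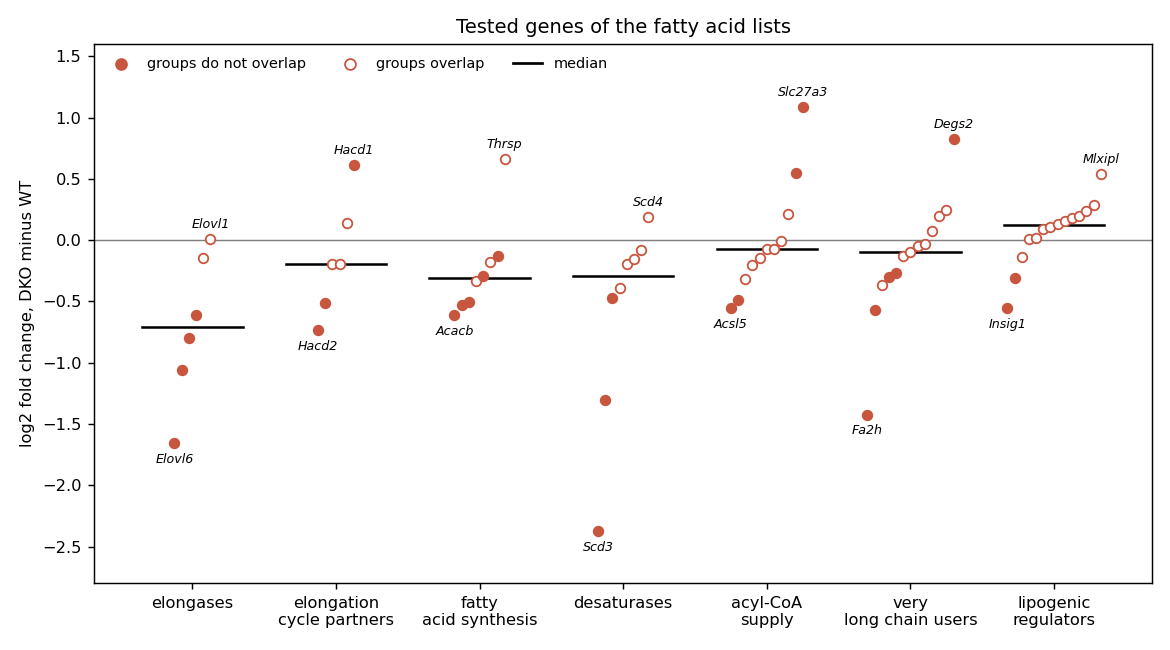
Log2 fold changes (y axis, DKO minus WT) of every tested gene of the elongases and of 6 lists of neighbouring pathway genes, filled where the groups do not overlap, with the list median as a bar. The elongases have a median of −0.71, and the other lists have medians between −0.31 and 0.12.

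Markers of the cell types in full-thickness skin were read beside the elongases, and edgeR called none of them. For comparison, 13.2% of all genes tested were without overlap in either direction, and 1512 of 20168 had an unadjusted p under 0.05 in edgeR. DESeq2 called 0.827% of the genes it tested. Of 11 sebaceous gland markers 10 had lower and 1 had higher values in DKO, 6 were lower without overlap and 7 at an unadjusted p under 0.05, and the median was −0.89. Their summed normalized counts were 34097 to 40056 in WT and 13675 to 24228 in DKO. *Scd1*, the most abundant of them, and *Far2* (−1.72, edgeR adjusted p = 0.068) were among the 5 that DESeq2 called lower. *Krt79*, a sebaceous duct keratin, was not lower (0.13). All 10 hair follicle markers had lower values in DKO, 2 of them without overlap and 1 (*Krt71*) at an unadjusted p under 0.05, with a median of −0.30 and *Tchh*, the most abundant, at −0.66, and DESeq2 called 0. Of 10 white adipocyte markers 7 had higher values (median 0.19, sums of 17423 to 25174 in WT and 16186 to 29868 in DKO). The most abundant of them, *Lpl*, differed by −0.07, and *Retn*, with the smallest p, by 1.42 (edgeR adjusted p = 0.281). DESeq2 called *Retn* and *Cfd* higher. *Ucp1*, which defines brown adipocytes, had at most 18.4 normalized counts. Of the 6 other brown adipocyte markers 4 had higher and 2 lower values, between −1.10 and 1.48, with 1 in each direction without overlap. Among them *Zic1*, the most abundant, differed by 0.05 and *Cox8b*, with the smallest p, by 1.48 (edgeR adjusted p = 0.335). All 20 skeletal muscle markers had higher values, 16 without overlap and 16 at an unadjusted p under 0.05, with a median of 1.09. *Ttn*, the most abundant, differed by 1.05 and *Tnni2* by 1.23, and DESeq2 called 13 of the 20. Basal keratinocyte markers summed to 47453 to 50184 in WT and 43175 to 68716 in DKO, and suprabasal markers, where *Elovl4* acts, to 102201 to 105925 and 126945 to 155014. The 8 suprabasal markers did not move together: 5 had higher values, 3 of them without overlap, and 3 had lower values, 1 of them without overlap. Their median was 0.20. In these lists *Krt5* differed by 0.11, *Krt15* by −0.60 and *Krt1* by 0.79, and among fibroblast markers *Col1a1* differed by 0.40 and *Pdgfra* by 0.43. *Dct* and *Mitf* of melanocytes (0.04 and −0.22), *Csf1r* of leukocytes (0.42), *Cdh5* and *Pecam1* of endothelium (−0.01 and 0.34) and *Hbb-bs* of red blood cells (−0.27) were not called by edgeR or DESeq2. *Csf1r* had the highest value of the 7 leukocyte markers, of which 4 had higher and 3 lower values, down to −1.02. No marker of any list was at 0 in all libraries, and the part of these cell types in the values of the elongases was not tested. With library sizes taken without the muscle markers, *Elovl6* remained the only called member. That setting changes only the scaling between libraries, so it does not test the part of muscle in these values.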

How the data were processed

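Total RNA of 6 P4 skin samples was sequenced as paired-end reads after rRNA depletion. Per the labels, the authors trimmed reads with Trimmomatic 0.36, aligned them to GRCm38 with STAR 2.5.2b and counted them with featureCounts (Subread 1.5.2). The deposited values are raw counts per gene. The strand setting and the treatment of reads with several matches are not given in the sources used here. A further 7 epidermis libraries from 3-week-old mice were not used, since their files as used here hold 0 for every gene.

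The groups were compared with edgeR 4.0.16 under R 4.3.3 (filterByExpr, TMM, quasi-likelihood F test, Benjamini-Hochberg over all genes tested), and DESeq2 1.42.0 was the alternative. The study itself used DESeq2 with the same thresholds, and reported *Elovl6* and *Scd1* among the genes lower in P4 DKO skin. The paper sets this beside its finding of diminished sebaceous glands, stained in adult skin, where SCD1 labelling remained. That link was not tested here. Scripts were tested on simulated data. Other normalizations, filters on low counts, the label number as a block and each library left out were also tried, and DESeq2 with each library left out was added after seeing the data. For a normalized count, a count was scaled from its own effective library size to the mean of the 6, and RPKM divides by effective size and annotated exon length. Intervals of fold changes are 95% intervals from edgeR. The floor of 3 counts covers counting error only. Replicates were numbered in accession order, and whether a shared label number marks a litter is not stated. If replicates were not separate litters, p-values measure only the spread between these mice.

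Symbols were found for 48970 of 49315 identifiers, or 99.3%, from GENCODE vM21 and a table of gene names. The members and all lists were chosen with earlier results of these data known. Genes were named by rule: all members, the 2 genes with the smallest p in each pathway list, the most abundant gene and that with the smallest p in each marker list, and the 5 profiles nearest to each member past the fold threshold (log2, prior 2). *Hacd1*, *Tecr*, *Fasn*, *Cers3*, *Srebf1*, *Krt79*, *Plin1*, *Ucp1*, *Cfd* and the genes overlapping members were named after their values were seen.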

Additional observations from a re-analysis of the deposited data

How the results depend on the processing

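*Elovl4*, *Elovl5*, *Elovl6* and *Elovl7* kept their direction in every setting run, as did *Elovl3*. The number of members called was 1, and it was 2 (*Elovl6* and *Elovl3*) with DESeq2 and with no filter on low counts. With each replicate left out in turn it was 0 to 2 with edgeR and 1 to 2 with DESeq2. The count of all genes called, 14 (8 higher, 6 lower), was 152 with DESeq2 (96 higher, 56 lower), 22 with total counts (10 higher, 12 lower), 210 with no filter on low counts (133 higher, 77 lower), 21 without the muscle markers in library sizes (9 higher, 12 lower) and 2 to 36 with a replicate left out. *Elovl3* was also called with no filter (log2 fold change −1.09, edgeR adjusted p = 9.07e-04) and with DESeq2 (−1.08), and leaving out a replicate gave −1.36 to −0.85 with edgeR and −1.36 to −0.86 with DESeq2, where it was called without WT replicate 2 (−1.14), DKO replicate 2 (−1.36) or DKO replicate 3 (−1.06). *Elovl1*, near 0, turned to −0.0040 with DESeq2, −0.0029 with RLE size factors, −0.032 with total counts, −0.015 with no filter, −0.0046 with at least 10 counts in every library and −0.0075 without the muscle markers, and ranged from −0.10 to 0.14 (edgeR) and −0.11 to 0.11 (DESeq2) with a replicate left out. With DESeq2 it was −0.0091 without WT replicate 1, −0.033 without WT replicate 2 and −0.030 without DKO replicate 1. For *Elovl6* the same range was −1.84 to −1.52. As a share of counts not divided by length, *Elovl4* differed by 1.46 percentage points (DKO minus WT) in place of −0.96, *Elovl6* by −14.0 in place of −8.79 and *Elovl7* by 6.36 in place of 3.81. The causes of these shifts were not tested.

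The label numbers 40972 and 47347 occur in both genotypes, but no label says what they mark. With that number as a replicate block 35 genes were called (15 higher, 20 lower) and 1 member, *Elovl6* (−1.67, edgeR adjusted p = 0.00256), while *Elovl4* passed the p threshold (edgeR adjusted p = 0.0338) but not the fold threshold. Deviations from the group means correlated at −0.02 to 0.23 between libraries of the same number and at −0.15 to −0.10 between others, across genes. Within a group the deviations of a gene cancel out, so these correlations are tied to each other and do not show what the number marks. The depth of 11263863 to 17643043 counts left *Elovl2* untestable, and 3 mice per group limit every exact test to p = 0.1 or more.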
